A study of Mus musculus with 6 samples.

Results

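The genes described here encode the T cell receptor complex and the first signalling steps behind it: the receptor and CD3 chains, the CD8 coreceptor, accessory surface molecules, kinases, adaptors, enzymes and the proteins that restrain them. They were chosen as a list by function, with earlier results of these data known. Of 44 names on the list, 43 were rows of the deposited table of 14481 genes, and all 43 passed the filter on low counts that 14319 genes passed. The remaining name, Gads, is a synonym of the listed gene Grap2 in RefSeq and had no row of its own.

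Polyadenylated RNA of wild-type mouse CD8+ T cells was sequenced at day 3 of culture. All cells had been sorted and activated with plate-bound antibody to CD3e (1 µg/ml), soluble antibody to CD28 (1 µg/ml) and interleukin 2 (0.1 µg/ml), and at day 1 received conditioned medium (CM) from pSTAT3+ or pSTAT3- astrospheres for 2 days. The groups are called STAT3+ CM and STAT3- CM, with 3 libraries each. The STAT3 label belongs to the cells that made the medium, not to the T cells. Every group therefore carried the same stimulus through the receptor, and no library from T cells without CM was analysed here. The sources used here give neither the age, sex or number of the mice nor the amount of CM. No label states that replicates are separate mice or cultures, and a p-value here measures the spread between these samples alone, which may be technical.

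The αβ T cell receptor recognises a peptide held by an MHC molecule but has no signalling domain of its own. It relies on the CD3 chains and CD247 (the zeta chain), whose tyrosine motifs are phosphorylated by the kinase LCK, brought in by CD8. ZAP70 then binds the phosphorylated chains and phosphorylates the scaffold LAT, on which adaptors assemble phospholipase C gamma 1, VAV1 and other enzymes that lead to calcium, Ras and NF-kB signals. Phosphatases, ubiquitin ligases and diacylglycerol kinases limit each step. Receptor engagement is also known to lower the amount of receptor on the cell surface.

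Values are CPM, the reads of a gene per 1000000 reads of the library after a normalisation factor. Total counts ran from 43346089 to 53630514 per library, and the member with the fewest reads, the adaptor gene Trat1, still had 229 to 458 reads per library. A log2 difference is the level in STAT3+ CM relative to STAT3- CM, given with its standard error (SE) and, for some genes, its 95% interval. Tests were made by quasi-likelihood in edgeR and adjusted by Benjamini-Hochberg over all 14319 genes. Where values of all libraries are listed, replicates 1 to 3 of STAT3- CM come before replicates 1 to 3 of STAT3+ CM. On the first 2 principal components of all genes (36.8% and 31.1% of the variance) the libraries farthest from the centre were STAT3- CM replicate 3 and STAT3+ CM replicate 1. The sample was a CD8+ T cell population by its defining transcripts: Cd8a stood at 782 to 1064 CPM, whereas Cd4 stood at 0.66 to 1.62 CPM. Summed levels of the marker lists for CD4 T cells, γδ T cells, NK cells, macrophages and astrocytes were at most 41.8 CPM in any library and overlapped between the groups. Of 6 B cell markers 2 had rows: Ighm stood at 268 to 337 CPM in overlapping groups, and Cd79b at 7.40, 7.71 and 10.7 CPM in STAT3- CM, below the 10.9, 10.9 and 11.8 of STAT3+ CM (0.39, SE 0.19). The 3 dendritic cell markers with rows summed to 19.8 to 22.3 CPM in STAT3- CM and 9.49 to 15.2 CPM in STAT3+ CM. They did not move alike. Zbtb46 (means of 15.6 and 10.2 CPM) and H2-Aa (4.15 and 1.26) were lower in STAT3+ CM without overlap, at adjusted p of 0.989 and 0.533 by edgeR. Itgax overlapped (0.955 and 0.920). The other 5 of the 8 on that list had no rows. The part of the B cell and dendritic cell markers in the results below was not tested. In bulk RNA, fewer cells of a type and less RNA per cell cannot be told apart.

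None of the 43 genes changed between the media past the threshold. The 9 chain genes of the receptor, CD3 and CD8 all had log2 differences above 0, from 0.10 to 0.25, and the largest value of any member was 0.25. At an adjusted p of 0.05 edgeR called 0 of 43 members, where it called 0 of all genes tested (0%), and the smallest adjusted p among the members was 0.989. At an unadjusted p under 0.05 stood 0 members, where the share over all genes was 3.64% (1.34% higher and 2.3% lower in STAT3+ CM). DESeq2, which called 48 of all genes, and limma-voom, which called 0, also called 0 members. Of the 43 values 25 were positive and 18 negative, with a median of 0.03, where 50.2% of all genes were positive and their median was 0.00. The interval of every member lay between -0.62 and 0.69, so that a 2-fold difference in either direction lay outside it for each of the 43. For 27 of the 43 the interval also lay within -0.5 and 0.5. The groups did not overlap in 2 members, Cd247 and Lck, both higher in STAT3+ CM, or 4.65% of the list, where the share over all genes was 7.95% (3.78% higher and 4.18% lower in STAT3+ CM).

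**Figure D1:**
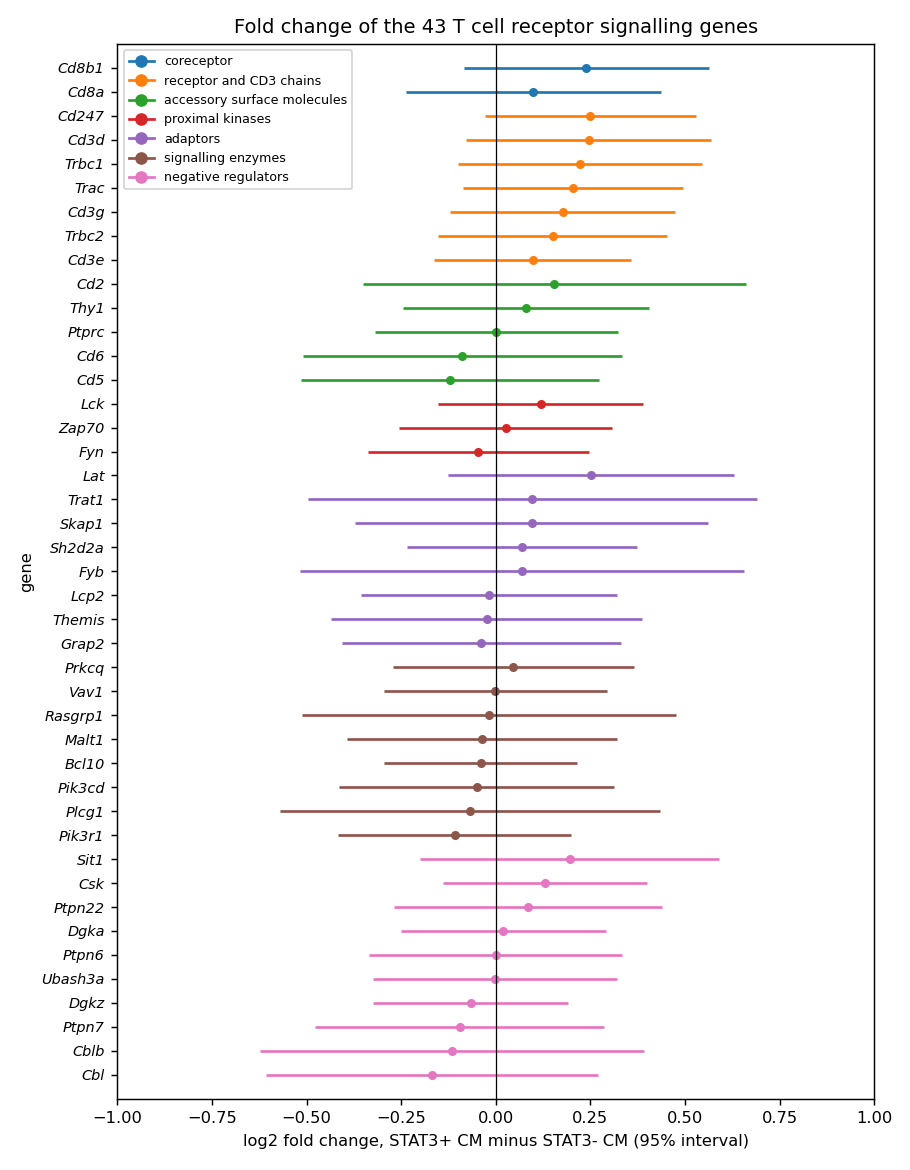
Log2 fold change of each of the 43 genes between STAT3+ CM and STAT3- CM (points) with its 95% interval (lines), in 3 libraries per group, coloured by role. Every interval crosses 0 and none reaches 1 or -1, and the 9 receptor, CD3 and CD8 chain genes at the top all have points above 0.

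In the receptor and CD3 chain genes replicates 1 and 2 of STAT3+ CM were the 2 highest libraries for all 7. Cd247, the zeta chain with the most tyrosine motifs of the complex, stood at 165, 165 and 156 CPM in STAT3- CM, against 206, 203 and 168 in STAT3+ CM. The 3 libraries of STAT3+ CM lay above all 3 of STAT3- CM, although replicate 3 did so by little (log2 difference 0.25, SE 0.13, interval -0.03 to 0.53, adjusted p = 0.989 by edgeR). Cd3d, the delta chain that pairs with epsilon, stood at 327, 315 and 334 CPM in STAT3- CM, against 416, 430 and 312 in STAT3+ CM. Here replicates 1 and 2 of STAT3+ CM were the highest and replicate 3 the lowest of all 6 libraries (0.25, SE 0.15, interval -0.08 to 0.57). Cd3g, the gamma chain, stood at 272, 266 and 283 CPM and at 343, 321 and 263, with replicate 3 of STAT3+ CM again the lowest (0.18, SE 0.13). Cd3e, the epsilon chain that is shared by both CD3 dimers and bound by the activating antibody, had the smallest difference of the 7, at 198, 178 and 197 CPM and at 217, 198 and 197, and its groups overlapped through STAT3+ CM replicate 3 alone (0.10, SE 0.12).

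The sequences upstream of 3 of these genes are shown because Cd247 and Cd3d had the largest log2 differences among the chain genes, and because Cd3g is the neighbour of Cd3d in the RefSeq annotation. They are the 250 bases before a RefSeq start of each gene in GRCm38.p6, 5′ to 3′ on the gene's strand: chr1:165788431-165788680, plus strand, for Cd247, chr9:44981536-44981785, plus strand, for Cd3d, and chr9:44980432-44980681, minus strand, for Cd3g. Capitals mark matches to any of 4 motifs, read on both strands: CAGGAAG for ETS factors, TGTGGT for RUNX factors, CAGGTG for E proteins and TTCNNNGAA for the STAT family.
Cd247: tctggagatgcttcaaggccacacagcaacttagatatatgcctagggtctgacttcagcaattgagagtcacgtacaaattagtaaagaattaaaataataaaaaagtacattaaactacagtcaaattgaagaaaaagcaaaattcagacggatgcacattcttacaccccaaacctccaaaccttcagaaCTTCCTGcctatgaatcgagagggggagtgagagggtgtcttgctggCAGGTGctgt
Cd3d: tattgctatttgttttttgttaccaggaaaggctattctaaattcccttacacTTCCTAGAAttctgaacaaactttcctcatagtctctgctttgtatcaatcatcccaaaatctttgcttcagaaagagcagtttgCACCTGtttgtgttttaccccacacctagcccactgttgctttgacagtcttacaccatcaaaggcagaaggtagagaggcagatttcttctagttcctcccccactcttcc
Cd3g: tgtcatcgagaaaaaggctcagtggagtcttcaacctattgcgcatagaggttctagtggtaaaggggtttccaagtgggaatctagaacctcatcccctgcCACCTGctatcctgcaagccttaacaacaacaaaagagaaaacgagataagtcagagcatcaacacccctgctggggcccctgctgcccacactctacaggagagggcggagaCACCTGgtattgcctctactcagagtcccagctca
The Cd247 window held 1 ETS and 1 E-box match, the Cd3d window 1 E-box and 1 STAT match, and the Cd3g window 2 E-box matches, and no matches overlapped within these windows. RefSeq windows were found for 33 of the 43 genes, 48 windows in all. CAGGTG was in 33.3% of these 48 and in 17.2% of all 32851 windows of the same length, CAGGAAG in 22.9% and 10.8%, TGTGGT in 8.33% and 14%, and TTCNNNGAA in 6.25% and 7.02%. Windows of the same gene were counted separately. By gene, the motifs in this order were found in 14, 9, 4 and 3 of the 33 members, with no share by gene over all genes. The shares were not tested. A match is a string of letters and not a measured binding site. No windows were used for Cd8b1, Trac, Trbc1, Trbc2, Cd2, Cd6, Thy1, Skap1, Sh2d2a and Malt1.

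In the constant regions of the receptor chains replicate 3 was likewise the lowest library of STAT3+ CM. Trac, the alpha chain constant region, stood at 305, 299 and 324 CPM in STAT3- CM, against 398, 359 and 313 in STAT3+ CM (log2 difference 0.21, SE 0.13, interval -0.09 to 0.50). Trbc1, the first beta chain constant region, stood at 316, 305 and 283 CPM and at 352, 410 and 293 (0.22, SE 0.15). Trbc2, the second, stood at 519, 494 and 431 CPM and at 532, 588 and 483 (0.15, SE 0.14). In all 3 the groups overlapped through STAT3+ CM replicate 3 alone.

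A mature beta chain uses either Trbc1 or Trbc2, and their near identity limits how surely reads are assigned. In the GENCODE vM21 transcripts on GRCm38, 23 of 518 coding bases differed (95.6% identity), and the first 259 bases were the same. Of all stretches of 75 coding bases, 52.5% were identical between the genes. The last 138 coding bases, positions 381 to 518 counted from the first base of the constant region, hold 22 of the 23 differences, marked by capitals, and are shown because reads there can tell the genes apart. In GRCm38 the genes lie at chr6:41538218-41539881 (Trbc1) and chr6:41546730-41548352 (Trbc2), plus strand.
Trbc1: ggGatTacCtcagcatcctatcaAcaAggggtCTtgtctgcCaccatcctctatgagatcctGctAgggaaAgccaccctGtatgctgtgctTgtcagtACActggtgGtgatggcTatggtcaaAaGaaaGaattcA
Trbc2: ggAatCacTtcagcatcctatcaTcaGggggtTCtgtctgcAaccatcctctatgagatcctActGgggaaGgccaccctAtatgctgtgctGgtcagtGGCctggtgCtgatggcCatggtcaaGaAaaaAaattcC
How reads that match both genes were counted was not given in the sources used here, and the split between the pair is less certain than their sum. The ratio of Trbc1 to Trbc2 reads was 0.609, 0.617 and 0.657 in STAT3- CM, against 0.662, 0.698 and 0.607 in STAT3+ CM. The groups overlapped (exact two-sided permutation test, p = 0.5).

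The variable segments showed a mixed population of receptors in both media. Rows for 22 Trbv and 55 Trav segments were present, with 85481 and 16468 reads over the 6 libraries. The most abundant beta segment, Trbv29, took 12.6 ± 0.931% of the Trbv reads in STAT3- CM and 12.8 ± 0.893% in STAT3+ CM (SD, n = 3). Trbv13-2 took 10.02 ± 0.84% and 9.697 ± 0.483%, and Trbv3 took 8.55 ± 0.14% and 8.91 ± 0.216%. No segment took the bulk of the reads in either medium, and edgeR called 0 of the 22 Trbv and 0 of the 55 Trav rows tested, with 0 and 0 at an unadjusted p under 0.05. Among alpha segments Trav12-2 took 5.03 ± 0.144% and 5.43 ± 0.36% of the Trav reads, and Trav16 and Trav16n, which are close copies among which reads can be misassigned, took 5.08 ± 0.576% and 4.61 ± 0.551%, and 4.84 ± 0.151% and 4.27 ± 0.253%.

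The coreceptor chains CD8α and CD8β form the dimer that brings LCK to the receptor. Cd8a stood at 782, 822 and 937 CPM in STAT3- CM, against 1064, 858 and 801 in STAT3+ CM (log2 difference 0.10, SE 0.15, adjusted p = 0.989 by edgeR). Its groups overlapped, with STAT3+ CM replicate 1 highest and STAT3- CM replicate 1 lowest. Cd8b1, which encodes the beta chain found on conventional CD8+ T cells, stood at 353, 368 and 399 CPM and at 514, 438 and 371 (0.24, SE 0.15, interval -0.09 to 0.56, adjusted p = 0.989 by edgeR). These groups overlapped by STAT3+ CM replicate 3 alone, which lay below STAT3- CM replicate 3.

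**Figure D2:**
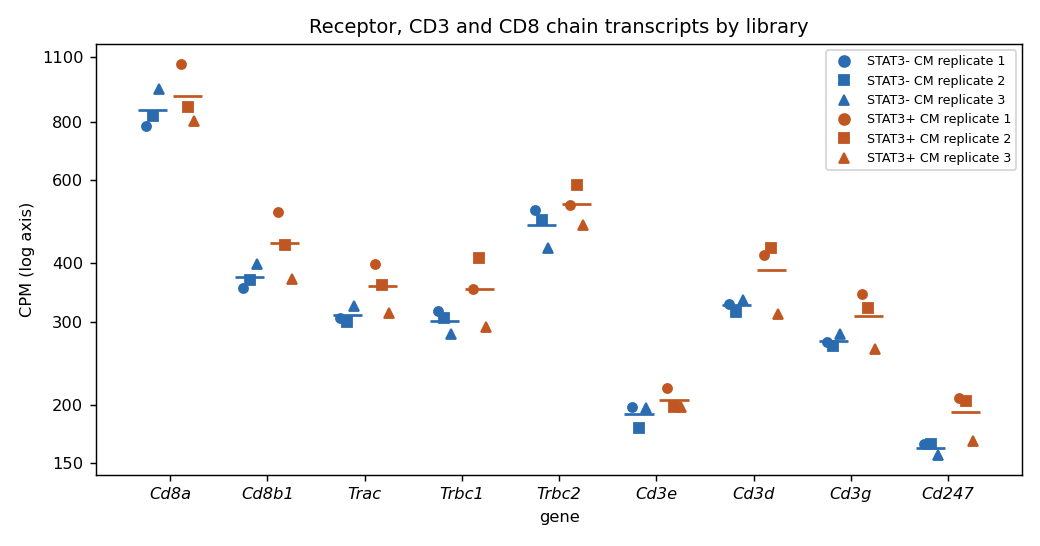
CPM on a log axis of the 2 coreceptor and 7 receptor and CD3 chain genes in each of the 6 libraries, with marker shape for the replicate number and a line for the mean of 3. STAT3+ CM replicate 3 lies within the range of STAT3- CM in 6 of the 9 genes, below it in Cd3d and Cd3g and above it in Cd247.

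The proportion of alpha to beta CD8 transcripts was taken within each library. The ratio of Cd8a to Cd8b1 reads was 2.21, 2.23 and 2.35 in STAT3- CM, against 2.07, 1.96 and 2.16 in STAT3+ CM. The 3 STAT3+ CM libraries lay below all 3 of STAT3- CM, with a mean log2 difference of -0.14 and a pooled SD of 0.06 between libraries of a group. By an exact two-sided permutation test p was 0.1, the smallest that 3 against 3 libraries allow, and 0.6 after adjustment over the 6 ratios examined. A ratio does not depend on the scaling of the libraries, but a difference in it would not show which gene moved. Among the other 5 ratios the groups overlapped in each. Trac to the sum of Trbc1 and Trbc2 was 0.398 ± 0.0481 and 0.405 ± 0.0457, and Lck to Fyn, both Src family kinases, was 2.19 ± 0.277 and 2.44 ± 0.193.

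**Figure D3:**
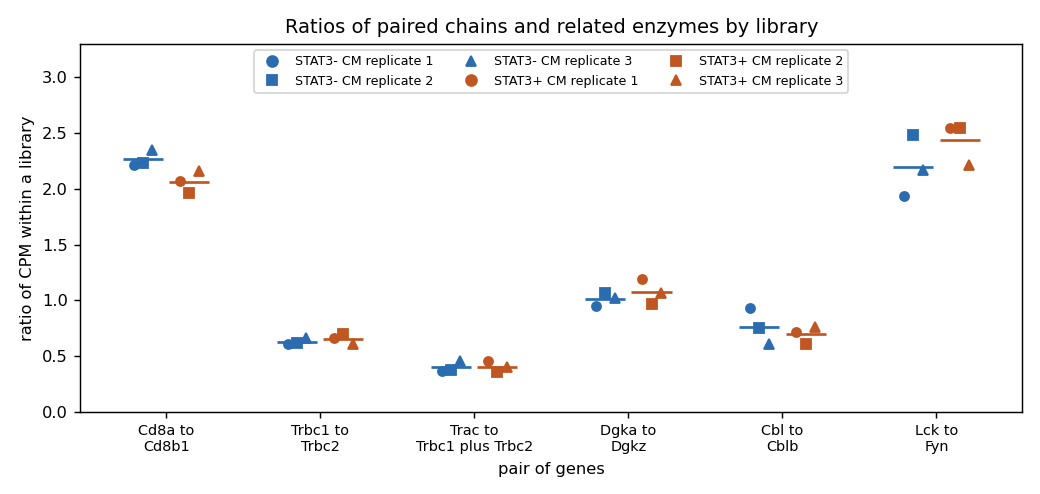
Ratio of CPM within each library for 6 pairs of genes, with marker shape for the replicate number and a line for the mean of 3. Only in Cd8a to Cd8b1, among the 6 pairs, do the STAT3+ CM libraries (1.96 to 2.16) lie wholly apart from STAT3- CM (2.21 to 2.35).

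The accessory surface molecules went both ways and their groups overlapped. Cd2, an adhesion receptor that adds to the signal, stood at 112, 143 and 154 CPM in STAT3- CM, against 208, 141 and 105 in STAT3+ CM, so that STAT3+ CM held both the highest and the lowest library. Cd5, a receptor that dampens signalling and whose surface level follows signal strength, stood at 264, 212 and 201 CPM and at 157, 226 and 240 (log2 difference -0.12, SE 0.18). Cd6, its close relative, stood at 381, 329 and 276 CPM and at 228, 335 and 365 (-0.09, SE 0.19). Both were lowest in STAT3+ CM replicate 1. Thy1, a surface glycoprotein of mouse T cells, stood at 1045 ± 55.1 and 1105 ± 161 CPM (SD, n = 3), and Ptprc, the phosphatase CD45 that primes LCK, at 1133 ± 67.6 and 1135 ± 146.

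None of the 3 kinases that start the cascade passed the test. Lck, which phosphorylates the CD3 chains, stood at 528.6, 529.03 and 491.6 CPM in STAT3- CM, against 568.6, 584.3 and 529.2 in STAT3+ CM. Its groups did not overlap, but STAT3+ CM replicate 3 exceeded STAT3- CM replicate 2 by less than 1 CPM (log2 difference 0.12, SE 0.12, interval -0.15 to 0.39, adjusted p = 0.989 by edgeR). Zap70, the kinase that docks on the phosphorylated chains, stood at 223, 183 and 216 CPM and at 204, 226 and 203 (0.03, SE 0.13). Fyn, which shares part of LCK's function, stood at 274, 213 and 227 CPM and at 223, 229 and 239 (-0.05, SE 0.13). The Zap70 and Fyn groups overlapped, and for Fyn the STAT3+ CM libraries lay within the range of STAT3- CM.

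Of the 8 adaptor genes tested 5 had positive and 3 negative values, and in each the media overlapped. Lat, the membrane scaffold, had the largest, with 546, 531 and 406 CPM in STAT3- CM against 498, 703 and 566 in STAT3+ CM (log2 difference 0.25, SE 0.17, interval -0.13 to 0.63, adjusted p = 0.989 by edgeR). It was highest in STAT3+ CM replicate 2 and lowest in STAT3- CM replicate 3. Lcp2, which encodes SLP-76, the partner that links LAT to VAV1, stood at 476, 464 and 363 CPM and at 372, 437 and 477 (-0.02, SE 0.15). Grap2, or GADS, the bridge between LAT and SLP-76, was nearly constant in STAT3- CM at 206, 207 and 209 CPM but ran to 258, 164 and 182 in STAT3+ CM (-0.04, SE 0.17). Fyb (the adaptor ADAP, which couples the receptor to integrins) ran from 115 to 176 CPM in STAT3- CM and from 110 to 215 in STAT3+ CM, and its partner Skap1 from 114 to 123 and from 88.0 to 173. Trat1, or TRIM, a transmembrane adaptor, stood at 5.06, 8.43 and 7.25 CPM, against 10.1, 6.53 and 5.65, with wide overlap (0.10, SE 0.27). Themis, known for its part in thymocyte selection, and Sh2d2a, the adaptor TSAd, had log2 differences of -0.02 and 0.07.

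Of the 8 signalling enzymes and their partners 7 had negative values, all close to 0, with a median of -0.04 and a range of -0.11 to 0.05. Plcg1, the phospholipase that makes the calcium and diacylglycerol signals, stood at 89.1, 87.3 and 134 CPM in STAT3- CM, against 129, 72.7 and 94.1 in STAT3+ CM (log2 difference -0.07, SE 0.23). Rasgrp1, which activates Ras upon diacylglycerol, followed the same libraries, at 92.5, 104 and 142 CPM and at 149, 83.6 and 102 (-0.02, SE 0.22). In both the highest libraries were STAT3- CM replicate 3 and STAT3+ CM replicate 1, 1 from each group. Vav1, an exchange factor for Rac, stood at 157, 153 and 120 CPM and at 143, 144 and 143. Prkcq (protein kinase C theta), Bcl10 and Malt1, which carry the signal to NF-kB, had values of 0.05, -0.04 and -0.04. Pik3cd and Pik3r1, the catalytic and a regulatory subunit of phosphoinositide 3-kinase, had -0.05 and -0.11, and Pik3r1 stood at 35.5, 29.6 and 37.4 CPM and at 33.5, 28.5 and 33.0.

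The 10 negative regulators were split evenly, 5 positive and 5 negative, with a median of 0.00. Csk, the kinase that switches LCK off, stood at 230, 230 and 247 CPM in STAT3- CM, against 281, 256 and 236 in STAT3+ CM (log2 difference 0.13, SE 0.12). Sit1, a small transmembrane adaptor that binds inhibitory phosphatases, stood at 19.8, 22.6 and 20.3 CPM and at 29.5, 24.0 and 18.4 (0.20, SE 0.18). Both had their 2 highest libraries in STAT3+ CM replicates 1 and 2. Cbl, a ubiquitin ligase that removes activated receptors, stood at 135, 121 and 166 CPM and at 142, 88.3 and 145 (-0.17, SE 0.20), the most negative value of the list, and its relative Cblb at 145, 162 and 273 and at 200, 146 and 191 (-0.12, SE 0.23). STAT3- CM replicate 3 was the highest library for both ligases. The diacylglycerol kinases Dgka and Dgkz had 0.02 and -0.07, the phosphatases Ptpn22, Ptpn6 (SHP-1) and Ptpn7 0.08, 0.00 and -0.09, and Ubash3a, which attenuates ZAP70 signalling, -0.00. Among the ratios, Dgka to Dgkz was 1.01 ± 0.0585 and 1.08 ± 0.112, and Cbl to Cblb 0.76 ± 0.16 and 0.692 ± 0.0777.

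Members were also compared library by library, as a description. STAT3+ CM replicate 1 was the highest of the 6 libraries for 21 of the 43 genes, or 48.8%, where it was the highest for 19.2% of all genes. Its partner replicates were the highest for 6 and 3 members. In 11 members the 2 highest libraries were STAT3+ CM replicates 1 and 2, a share of 25.6% where all genes had 11.8%. These were the 7 receptor and CD3 chain genes, Cd8b1, Lck, Csk and Sit1. In 26 of the 43 the 2 highest libraries came 1 from each medium, in 13 both from STAT3+ CM and in 4 both from STAT3- CM. These 3 counts are given without a share over all genes and are not read as a trait of the members. The pair of STAT3- CM replicate 3 and STAT3+ CM replicate 1 was the highest in 11, among them Cd8a, Fyb, Skap1, Plcg1, Rasgrp1, Ptpn22 and Cblb, and the lowest in 7, which were Cd5, Cd6, Lat, Lcp2, Vav1, Ptpn6 and Ptpn7. Over all genes that pair was the highest in 13.7% and the lowest in 13.7%.

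**Figure D4:**
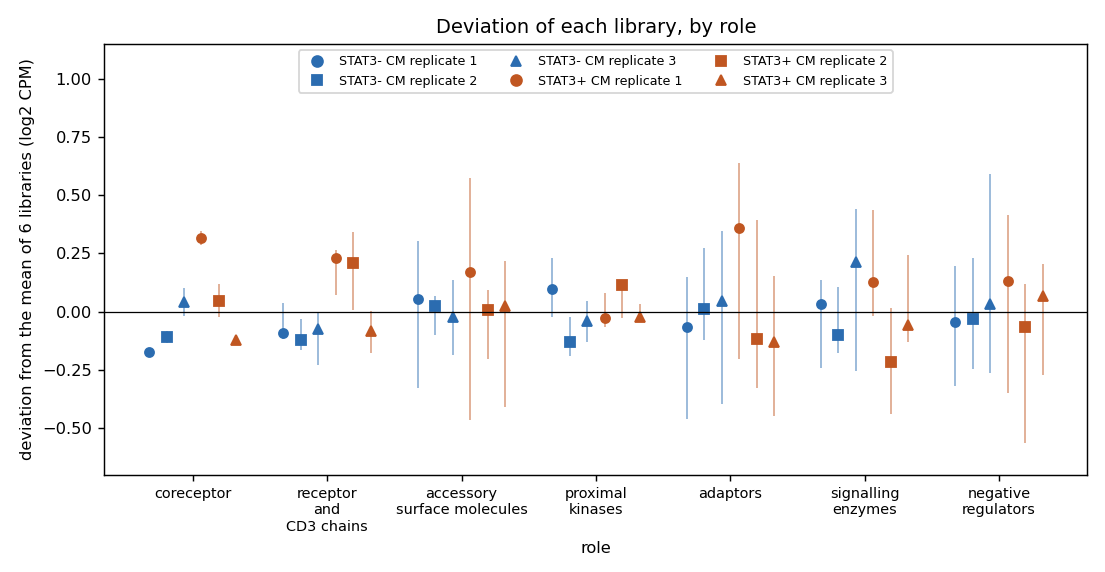
Deviation of each library from the mean of the 6 in log2 CPM, by role of the genes, with the median over the genes as a marker and their full range as a line. The receptor and CD3 chains are above 0 in STAT3+ CM replicates 1 and 2 (medians 0.23 and 0.21) and near -0.08 in replicate 3, while the adaptors of STAT3+ CM replicate 1 have the largest median, 0.36.

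Leaving out single libraries moved these values without giving a call. Without STAT3+ CM replicate 3, 7 of the 43 genes had an unadjusted p under 0.05, namely Cd3d, Cd247, Cd8b1, Trbc1, Trac, Cd3g and Sit1, all higher in STAT3+ CM. That was 16.3% of the members, where 9.45% of all genes were under 0.05 in the same fit and 3.78% were so and higher in STAT3+ CM. Cd3d then had a log2 difference of 0.38 (SE 0.12) and the smallest adjusted p of any member in any alternative, 0.476 by edgeR. Without STAT3+ CM replicate 1 the median over the 43 genes was -0.02 in place of 0.03, and 19 of 43 values were positive. The 9 receptor, CD3 and CD8 chain genes were positive under each of 3 other scalings, with medians of 0.16 to 0.21. Their median was 0.21 with all libraries, 0.12 without STAT3+ CM replicate 1 and 0.29 without STAT3+ CM replicate 3. Without STAT3+ CM replicate 1, 8 of the 9 were positive, Cd8a had -0.03, and Cd8b1 had 0.11 in place of 0.24.

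Scaled to length, the beta chain constant regions were the most abundant members. On the scale of CPM per kilobase of merged exon, Trbc2 stood at 696 in STAT3- CM, against 772 in STAT3+ CM. Trbc1 stood at 402 and 469 in the same order. At the other end stood Trat1 at 1.48 and 1.59 and Pik3r1 at 3.39 and 3.14. Thy1 (359 over all 6 libraries) and Trac (356) followed the beta chains. Their means over all libraries lay closer together than the SD of either gene in either group, so their order was uncertain. The same was true of Cd3d (196) and Lat (196). Of the CD3 chains Cd3d was the most abundant on this scale and Cd247 (33.2) the least. Merged exons join those of all annotated transcripts of a gene, so the order and the percentiles depend on the annotation as well. The merged length was 1815 bases for Cd3d and 5329 for Cd247. All but 2 of the 43, or 41, lay above the median of all genes with a length, 4.35 CPM per kilobase, and 22 lay above the 90th percentile. The median coefficient of variation of the members was 10.6% in STAT3- CM, against 15.2% in STAT3+ CM, beside 13.5% and 15.1% over all genes. Over the 8660 genes with a mean of at least 10 CPM, closer to most members in level, it was 10.1% and 11.7%.

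**Figure D5:**
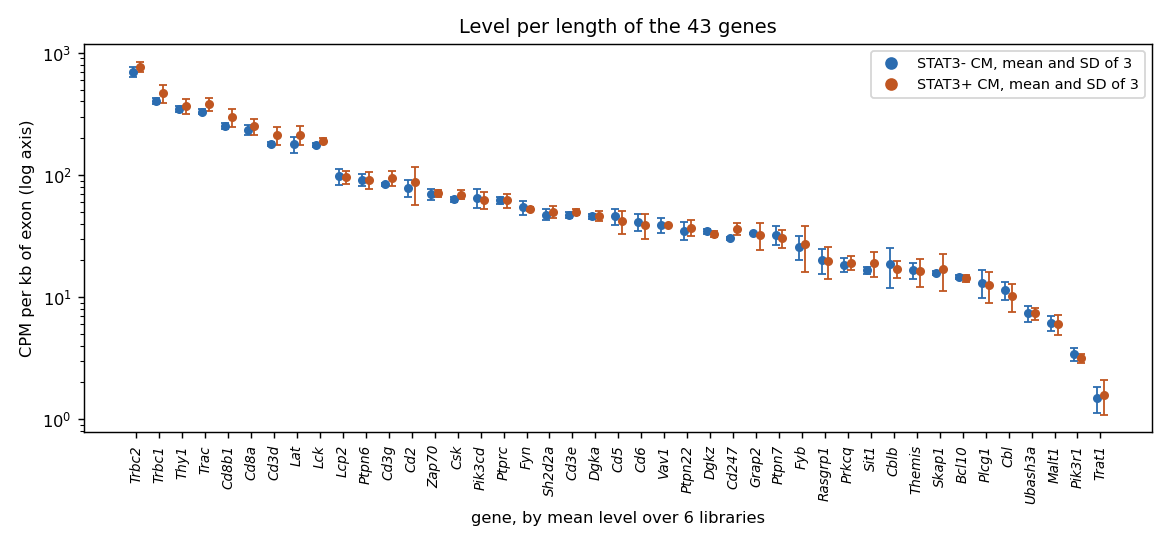
Level per length (CPM per kilobase of merged exon, log axis) of the 43 genes in order of their mean over 6 libraries, as mean and SD of 3 libraries per group. Levels run from 734 for Trbc2 to 1.54 for Trat1, and the group means lie close together at every level.

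Further genes of the pathway, 87 chosen by function, had no calls either. By edgeR 0 passed over all genes, and DESeq2 and limma-voom called 0. An unadjusted p under 0.05 was found in 2 of the 87, where the share over all genes was 3.64%. Of the 87 values 37 were positive (42.5%, beside 50.2% over all genes) and 50 negative, with a median of -0.02. Ptprj, the receptor phosphatase CD148, stood at 19.9, 17.3 and 20.8 CPM in STAT3- CM, against 10.6, 11.3 and 16.8 in STAT3+ CM (log2 difference -0.58, SE 0.19, adjusted p = 0.989 by edgeR). Rhoh, a protein of blood cells that helps bring LCK and ZAP70 to the receptor, stood at 86.0, 89.7 and 99.3 CPM and at 124, 122 and 102 (0.34, SE 0.13, adjusted p = 0.989 by edgeR). In both, the groups did not overlap and STAT3+ CM replicate 3 was the library nearest to STAT3- CM. Next by p came Lime1, a transmembrane adaptor of low level, at 0.68 ± 0.13 and 0.425 ± 0.0392 CPM, and Pik3ca, a catalytic subunit of phosphoinositide 3-kinase, at 74.3 ± 7.2 and 63.6 ± 6.28 CPM. In 7 of the 87 the groups did not overlap, or 8.05%, beside 7.95% over all genes.

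Genes that receptor signals are known to induce were examined as well. Whether receptor signals set their levels in these cells was not tested. Of 16 such genes tested 11 had positive values (68.8%, beside 50.2% over all genes), with a median of 0.07. Their median deviation from the mean of all libraries, in log2 CPM, was -0.14, 0.13 and 0.20 in replicates 1 to 3 of STAT3+ CM. For the receptor and CD3 chains it was 0.23, 0.21 and -0.08, so different STAT3+ CM libraries stood highest in each list. By edgeR, DESeq2 and limma-voom 0 were called, with 0 at an unadjusted p under 0.05. Myc, the growth regulator, stood at 283, 295 and 307 CPM in STAT3- CM, against 338, 344 and 344 in STAT3+ CM (log2 difference 0.21, SE 0.11, interval -0.04 to 0.47, adjusted p = 0.989 by edgeR), with no overlap of the groups. Cd69, an early activation marker, stood at 197, 183 and 197 CPM and at 198, 235 and 228, where the lowest STAT3+ CM library exceeded the highest of STAT3- CM by less than 1 CPM. The groups did not overlap in 2 of the 16, Myc and Cd69, or 12.5%, beside 7.95% over all genes. Egr3 had the largest value of the 16, 0.33 (SE 0.17), with overlapping groups. Egr1 and Nr4a1, immediate targets of receptor signals, had 0.26 (SE 0.18) and 0.18 (SE 0.17), and their groups overlapped. The 5 negative values of the list were those of Fos (-0.23, SE 0.19), Il2ra (-0.13, SE 0.15), Egr2 (-0.12, SE 0.32), Irf4 (-0.07, SE 0.15) and Nr4a2 (-0.01, SE 0.20), also with overlapping groups.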

How the data were processed

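The authors deposited raw read counts for each gene in 6 libraries of polyadenylated RNA. Per the submitters' processing notes, TopHat2 2.0.10 with Bowtie 1.0.0 was used, as were FastQC, Cufflinks 2.2.1 and SAMtools 0.1.19, with the build GRCm39. The counting program, annotation, strand setting and filter were not given in the sources used here, which leaves genes that overlap on opposite strands less certain. The lowest gene total was 40.

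Genes were filtered by filterByExpr and scaled by TMM (factors 0.9605 to 1.06). The test was the two-sided, robust quasi-likelihood test of edgeR 4.0.16 (R 4.3.3), at an adjusted p of 0.05, checked on simulated data. There it called 8 of 73 genes set to differ 1.5-fold (11%) and 42 of 63 set to differ 2-fold (66.7%). Of 64 genes set to differ 4-fold it called 62 (96.9%), and 6 of its 118 calls were false. SE is the size of the log2 difference divided by the root of F. DESeq2 1.42.0 and limma 3.58.1 (voom) served as alternatives, beside other scalings and filters and the omission of each library. Deviations used log2 CPM with a prior count of 2, ratios an exact permutation test (scipy 1.17.1), and lengths the merged exons of GENCODE vM21, matched by symbol.

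Members, lists and tests were chosen with earlier results of these data known. Values in every library are given for the receptor, coreceptor and kinase genes, Lat, Lcp2, the 12 members with the smallest p, members without overlap and the 2 highest and 2 lowest by level per length. Other pathway genes named are the 4 with the smallest p, and segments the 3 most abundant. Other members shown by library and the receptor-induced genes named were chosen after their values were seen.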

Additional observations from a re-analysis of the deposited data

How the results depend on the processing

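Over 16 alternatives, 15 planned and 1 added after the data had been seen, none of 688 member values passed the threshold. The adjusted p of the members was 0.476 or more in each alternative. The sign stayed the same throughout in 13 of the 43 genes: Cd247, Cd3d, Cd3e, Cd3g, Cd8b1, Trac, Trbc1, Trbc2, Lck, Lat, Csk, Dgkz and Pik3r1. Every alternative drew on the same libraries, so kept signs are not independent evidence. No share over all genes was taken, and the count is not read as a trait of the members. The number of genes called over the whole table was 0 with all libraries, 48 by DESeq2, 0 to 18 with 1 library left out (18 without STAT3- CM replicate 3, 1 without STAT3- CM replicate 1) and 10 when the outlying pair, replicate 3 of STAT3- CM with replicate 1 of STAT3+ CM, was omitted, and no member or further pathway gene was among them. The median over the members, 0.03, was -0.0204 with library totals only, where the median of all genes was -0.0416, ran from -0.0227 to 0.0959 with 1 library left out, and was -0.0212 without the outlying pair. The cause was not tested. The number of members at an unadjusted p under 0.05 was 0 to 7 with 1 library left out, where the share of all genes was 2.03% to 9.45%. The 7 came only without STAT3+ CM replicate 3, the fit with the 9.45%. Libraries of equal replicate number had correlations of -0.261, 0.281 and 0.182 over 14319 genes once group means were subtracted. Those of unequal number ran from -0.495 to 0.423. With 3 libraries per group the subtraction ties these values to each other, so they cannot decide whether the numbers mark pairs. With the replicate number as a block, 0 members and 0 genes were called, and the member median was 0.0168. In that fit 4.95% of all genes had an unadjusted p under 0.05, against 3.64% without the block, with 0 members in either. The log2 difference in the ratio of Cd8a to Cd8b1 ran from -0.1687 to -0.0986 with 1 library left out. With 3 libraries per group, a p that misses the threshold does not show equal levels.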
